A study of Arabidopsis thaliana with 2 samples.

Results

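The quiescent centre is a small group of rarely dividing cells at the root tip that keeps the surrounding stem cells in place. Genes around it and around the cell cycle were examined for peaks of ERF115, a transcription factor of the AP2/ERF family. The genes were WOX5, MYB56, RBR1, CYCB1;1 and LGO, which makes 5 of the 27444 nuclear protein-coding genes in the names table used. They were chosen by the authors' assigned loci and peak positions in this list, with the peaks already known: a gene was taken with its own peak or with that of the nearest locus number. The presence of a peak at or near them therefore describes the choice and was not tested. In the deposited list, 1 of the 5 genes, LGO, had a peak of its own. The peaks nearest to the other 4 genes in the order of locus numbers were assigned by the authors to neighbouring genes. These 5 peaks are described here among all 612 peaks.

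The ERF115 cells were PSB-D suspension cells of Arabidopsis thaliana, ecotype Landsberg erecta, kept in the dark and carrying 35S::ERF115-HBH, that is, ERF115 fused to the HBH tag behind a constitutive promoter. The control was the wild type of the same dark-grown culture, put through the same purification as a mock. Both cultures grew with the auxin NAA and with kinetin, were crosslinked with 0.75% formaldehyde for 10 minutes and were harvested 2 days after subculturing. DNA bound to the tagged protein was recovered on nickel and then streptavidin beads and sequenced, with 1 library of each kind. A suspension culture has no root tip and no quiescent centre, the promoter is not that of ERF115, and a peak list gives no expression level with which the cell type could be checked. No value here has a replicate, the sequencing depth is unknown, and no peak list or count of the mock was used here.

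ERF115 is known as a rate-limiting factor of quiescent centre division, and its protein is removed by the anaphase-promoting complex with the activator CCS52A2. Quiescent centre identity depends on WOX5, a homeobox factor of the WUSCHEL family that is made in the quiescent centre and holds the neighbouring stem cells undifferentiated. MYB56, also called BRAVO, is an R2R3 MYB factor that restrains quiescent centre division under brassinosteroid control. RBR1 is the plant retinoblastoma protein, which binds E2F factors and limits entry into DNA replication. CYCB1;1 is a mitotic cyclin, widely used to mark cells in G2 and M phase. LGO, also called SMR1, belongs to the SIAMESE family of inhibitors of cyclin-dependent kinases and promotes endoreplication.

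The score given to each peak is the one written by the peak caller MACS, which is a p-value on a negative log10 scale multiplied by 10, so that a higher score means a smaller p-value. The authors' scores served only to rank peaks within this list, where they ran from 50.01 to 537.85 with a median of 78.9. The peak caller's fold enrichment was not analysed here. Among nuclear protein-coding genes, 564 of 27444, or 2.06%, had an assigned peak, and this is the background for the 1 of 5 genes with its own. With the next protein-coding gene on either side also counted, the background was 5.93%, and LGO, WOX5, MYB56 and RBR1 met this count. With 2 genes on either side it was 9.50%, and all 5 genes met it. Nothing is read from these counts, since the genes were picked for them.

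The neighbouring gene stands in for each of these genes only in gene order. All 603 pairs of consecutive peaks that were assigned to different loci followed the order of locus numbers along the chromosomes. Between consecutive peaks, the reference position advanced by a median of 3.64 kb per protein-coding gene (quartiles 3.21 and 4.16 kb, 523 pairs). Each value averages over all the genes between the peaks of a pair, so single steps can be shorter or longer. On which side of the assigned gene a peak lay, towards or away from the gene of interest, was not analysed here, nor was its distance from a start site. All peak coordinates are those of TAIR10, the build named in the submitters' processing notes, counted from 1.

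The 5 peaks were spread through the ranking, from rank 13 to rank 578 of 612. Their scores were 136.3 next to WOX5, 82.77 next to MYB56, 176.81 next to RBR1, 285.51 near CYCB1;1 and 51.94 at LGO. Of the 5 peaks, 4 scored above the list median and 3 scored at least 100, as did 192 of all 612 peaks (31.4%). The peak assigned to a gene of the group itself was the lowest of the 5.

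**Figure D1:**
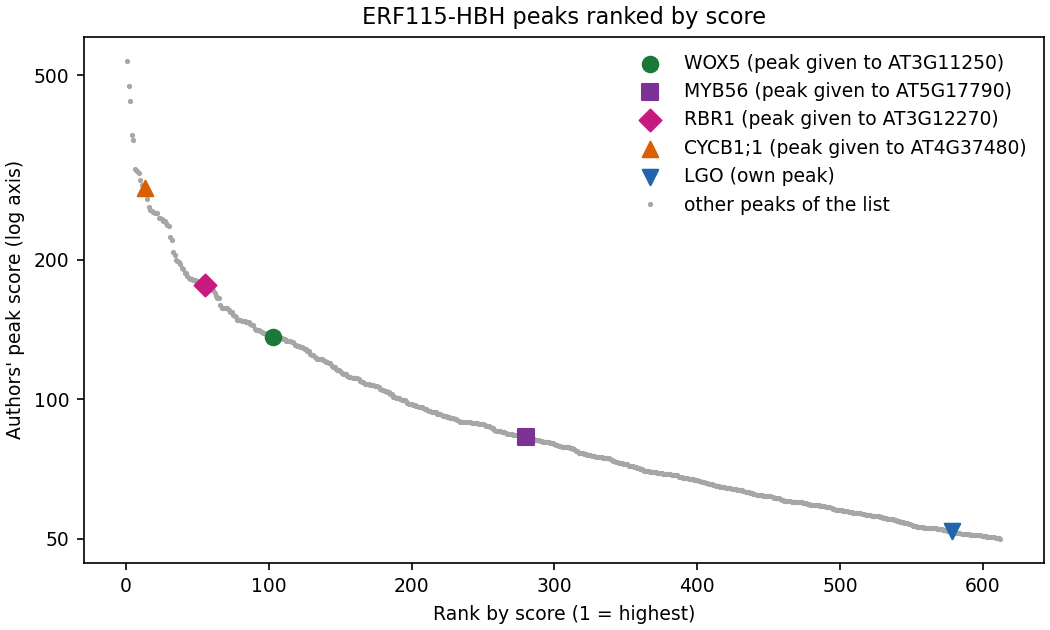
Authors' peak score (log axis) against rank by score for all 612 ERF115-HBH peaks, with the peaks at or nearest to WOX5, MYB56, RBR1, CYCB1;1 and LGO as coloured symbols and all other peaks as grey points. The peak near CYCB1;1 sits at rank 13 and that of LGO at rank 578, close to the low end of the list.

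WOX5 (AT3G11260) had no peak assigned to it. The peak next to it lay at chr3:3520674-3522018 and was assigned to AT3G11250, the protein-coding gene just before it, with the label UTR 5'. It was 1345 bp wide and its score of 136.3 ranked 103 of 612, above 83.2% of all peaks. Among the 49 peaks labelled UTR 5', whose median score was 71.7, it ranked 7. The peaks directly above and below it in the ranking scored 136.52 and 136.1. On the other side, MEE34 (AT3G11270) had no peak, and AT3G11250 was the only locus with a peak among the 3 protein-coding genes on either side of WOX5. The position that the authors gave inside the peak, used here as its reference position, was 27.0 bp from the midpoint, against a median offset of 209 bp over all peaks.

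MYB56 (AT5G17800) lay next to a peak near the middle of the ranking. This peak, at chr5:5873309-5874436, was assigned to VAR3 (AT5G17790), which encodes a zinc finger protein needed for chloroplast development, and was labelled intergenic 5'. Its score of 82.77 ranked 280 of 612, above 54.2% of the peaks. Among the 275 intergenic 5' peaks it ranked 122. At 1128 bp it was among the narrowest peaks of the list, with 0.817% of all peaks narrower. On the other side of MYB56 stands WOX12 (AT5G17810), a relative of WOX5 known for roles in adventitious root formation, and it had no assigned peak. The VAR3 peak is thus also the nearest in gene order to WOX12, at 2 protein-coding genes.

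The MYB56 region was also the most isolated of the 5. No other peak had its reference position within 250 kb of that of the VAR3 peak, a situation shared by 51 of the 612 peaks, or 8.33%. The next peaks on chromosome 5 began 282 kb away at AT5G18540 and ended 514 kb away at AT5G16370. The gap to the nearest peak was longer than for 94.1% of the list, in which the median gap was 37.4 kb.

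RBR1 (AT3G12280) lay next to a peak at chr3:3909705-3911390 that the authors assigned to PRMT3 (AT3G12270), an arginine methyltransferase, with the label intergenic 5'. The score of 176.81 ranked 55 of 612, above 91.0% of the peaks. It ranked 27 among the 275 intergenic 5' peaks and 16 among the 172 peaks of chromosome 3. Its width was 1686 bp, with its reference position 64.5 bp from the midpoint. On the other side of RBR1, AT3G12290 had no peak. In the 250 kb on either side there were 3 more peaks, with scores of 62.4, 66.71 and 104.04, each lower than that of the PRMT3 peak.

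CYCB1;1 (AT4G37490) had the strongest of the 5 peaks in its vicinity, and this peak was also the farthest in gene order. It lay at chr4:17618036-17619868 and was assigned to AT4G37480 with the label intergenic 5'. In steps of 10 that locus number directly precedes CYCB1;1, but the names table holds a further protein-coding gene, AT4G37483, between them, so the peak was 2 genes away. Neither AT4G37483 nor AT4G37500 on the other side had a peak. The score of 285.51 ranked 13 of 612, 6 among the 275 intergenic 5' peaks and 3 among the 74 peaks of chromosome 4. Of all peaks, 97.9% scored lower, and the width of 1833 bp was close to the list median of 1894 bp.

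The next peak beyond CYCB1;1 began 37.4 kb after the AT4G37480 peak ended and was assigned to HLS1 (AT4G37580), a regulator of the apical hook of dark-grown seedlings. Its score was 86.87. Within 250 kb there were 2 further peaks, at AP2 (AT4G36920), a floral regulator that gives the AP2/ERF family part of its name, with a score of 56.37, and at EDA40 (AT4G37890) with a score of 157.81. The AT4G37480 peak was thus the highest of the 4 in this stretch.

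LGO (AT3G10525), listed by the authors as SMR1, was the gene with a peak of its own. The peak lay at chr3:3278520-3280892 with the label intergenic 3', which was carried by 19.1% of all peaks. Its score of 51.94 ranked 578 of 612 and was 1.93 above the lowest score in the list, with 5.56% of the peaks scoring lower. Among the 117 intergenic 3' peaks it ranked 111, and among the 172 of chromosome 3 it ranked 165. It was the widest of the 5 at 2373 bp, wider than 62.4% of the list. The reference position was off centre, 644 bp from the midpoint and 77.1% of the way along the peak, an offset larger than in 80.1% of all peaks. The genes on either side, HB2 (AT3G10520) and AT3G10527, had no peak.

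**Figure D2:**
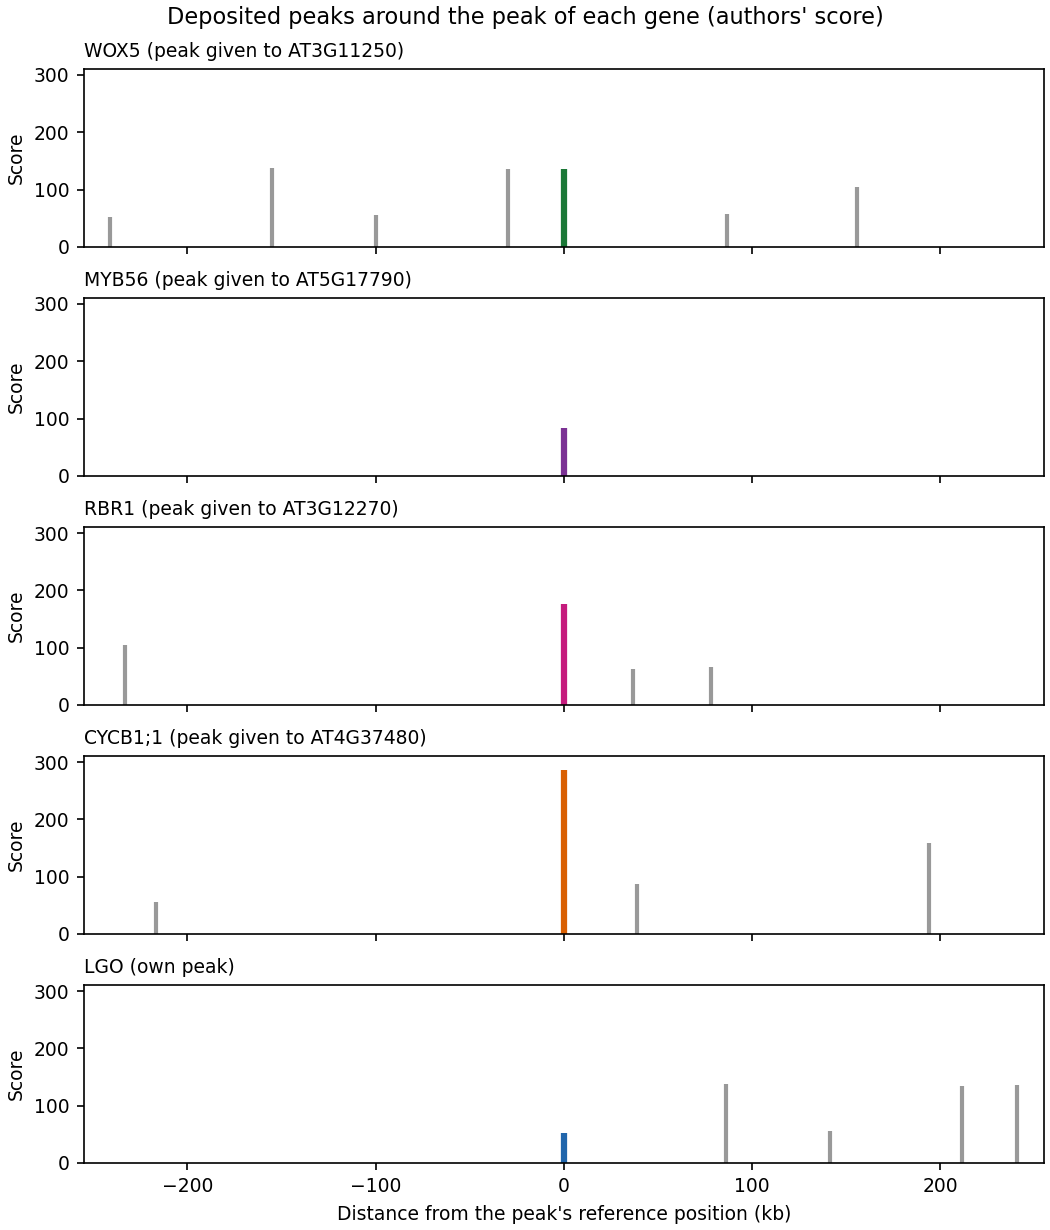
Authors' score of every deposited peak within 250 kb of the peak described for each gene, plotted by the distance of its reference position in kb (1 panel per gene, in colour the peak at or nearest to the gene, in grey all other peaks). The peak next to MYB56 stands alone, while 6 others lie around the peak next to WOX5.

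The regions of LGO, WOX5 and RBR1 were close to each other. All 3 genes lie on chromosome 3, and their peaks fall within 633 kb. That stretch held 8 peaks, with scores from 51.94 to 176.81, the lowest being that of LGO and the highest that next to RBR1. The LGO and WOX5 peaks were 241 kb apart and so count within each other's 250 kb window. The WOX5 window held 6 other peaks and the LGO window 4, against a list median of 3 (quartiles 2 and 6). The peak nearest to that of AT3G11250, at AT3G11130, ended 28.3 kb away and was much like it, with the label UTR 5', a score of 135.03 and a width of 1353 bp.

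Width and score ordered the 5 peaks differently. The widths were 1345 bp next to WOX5, 1128 bp next to MYB56, 1686 bp next to RBR1, 1833 bp near CYCB1;1 and 2373 bp at LGO. Only the LGO peak was wider than the list median of 1894 bp, and it had the lowest score of the 5. None of the 5 carried the mark TP, which the authors' deposited table gives to 22 of the 612 peaks (3.59%) without explanation in the sources used here. By label, 3 of the 5 were intergenic 5', 1 was UTR 5' and 1 was intergenic 3', against 44.9%, 8.01% and 19.1% of all peaks.

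**Figure D3:**
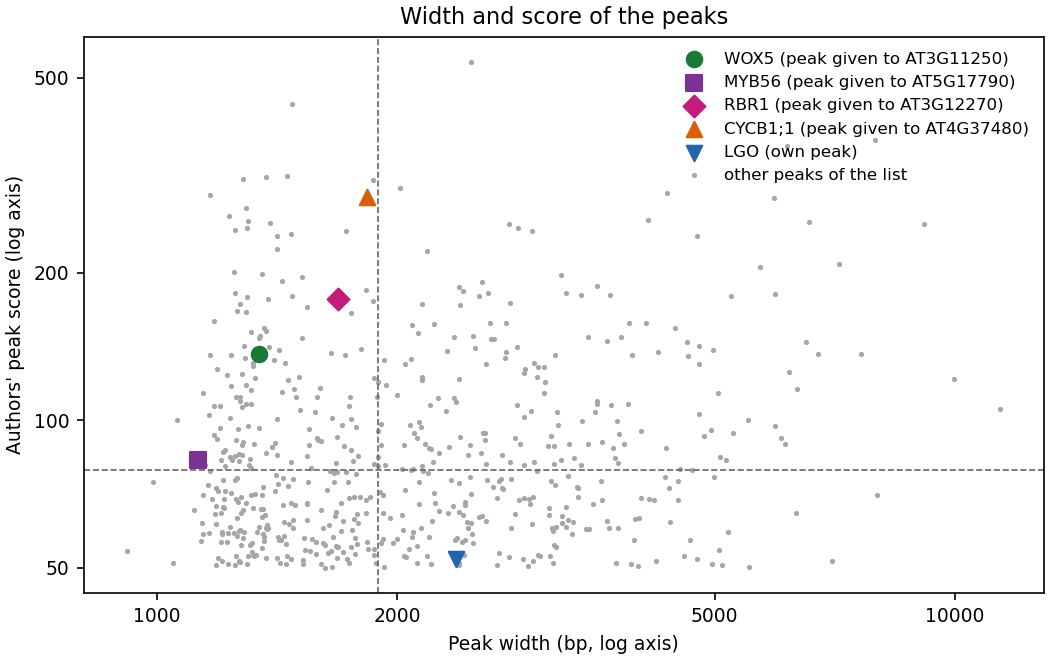
Authors' peak score against peak width in bp (both log axes) for the 5 peaks as coloured symbols and all other peaks as grey points, with dashed lines at the list medians. The peaks near WOX5, MYB56, RBR1 and CYCB1;1 lie left of the median width and above the median score, and that of LGO lies right of and below them.

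The wider families of these genes were followed through 11 lists with 127 distinct genes. These lists were chosen with earlier results of these data known, so their shares are descriptive and were not tested. In all, 3 of these genes had an assigned peak (2.36%), and without the 5 chosen genes 2 of 122 did (1.64%), against 2.06% of all nuclear protein-coding genes. The 3 were LGO, the brassinosteroid receptor BRL3 (AT3G13380) and SCL23 (AT5G41920), a GRAS factor related to SCARECROW. Counting the next gene on either side gave 11 of 127 (8.66%), against 5.93% of all genes. Without the 5 chosen genes it was 7 of 122 (5.74%), near the background. The median distance to a protein-coding gene with a peak was 22.5 genes over the lists without the 5 chosen genes, against 21.0 over all genes. Peaks assigned to other loci do not enter these distances, so a peak can lie closer than they show.

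In the list of 24 quiescent centre and stem cell niche genes, 2 had a peak (8.33%, against 2.06% of all genes). Because the list was chosen with earlier results of these data known, no excess is read from this share. The BRL3 peak, at chr3:4342259-4347449 and labelled UTR 5', was 5191 bp wide and scored 59.06 (rank 485). The SCL23 peak, at chr5:16779557-16782773 and labelled coding 3', scored 63.75 (rank 431). In the gene order used, the genes of this list next to a gene with a peak were WOX5, MYB56 and RBR1, all chosen for that position. Without these, 2 of 21 genes had a peak at the gene or the next one, against 5.93% of all genes. A peak scoring 69.31 (rank 375) was also assigned to AT5G10504, whose locus number is close below that of PLT3 (AT5G10510). That locus has no place in the gene order used, so PLT3 was not counted as next to a peak. No peak was assigned to the stem cell regulators PLT1, PLT2, SHR or SCR, nor to ERF115 itself.

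None of the 15 WUSCHEL-family homeobox genes had its own peak, against 2.06% of all genes, and 3 were next to a gene with one. Without WOX5, chosen for its neighbouring peak, it was 2 of 14, against 5.93% of all genes. These 2 were WOX2 (AT5G59340), an early embryo regulator, with the peak of AT5G59350 scoring 75.37, and PFS2 (AT2G01500, also called WOX6), with the peak of PAHX scoring 73.24. Both scores were below that next to WOX5. In the list of 8 genes related to MYB56 none had its own peak. With 2.06% of all genes having a peak, empty lists of 15 and 8 genes do not stand apart from other genes. Without MYB56, 1 of 7 was next to a gene with a peak, against 5.93% of all genes at or next to one. MYB105 (AT1G69560), which acts in organ boundaries, was next to the peak of AT1G69570, which scored 60.19, against 82.77 for the peak next to MYB56. MYB110 and MYB117 were each 3 genes from a peak, with scores of 109.26 and 95.76. Of all genes, 12.9% had a peak within 3 genes.

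The cell cycle lists held few peaks. None of the 9 B-type, 10 A-type or 10 D-type cyclins, none of the 9 cyclin-dependent kinases, none of the 7 KRP inhibitors, none of the 13 genes for RBR1, E2F, DP and MYB3R factors and none of the 11 regulators of the anaphase-promoting complex and checkpoints had its own peak. With 2.06% of all genes having a peak, an empty list of such a size does not stand apart from other genes. CYCB2;1 (AT2G17620), another mitotic cyclin, was next to AT2G17630, whose peak, labelled coding 5', scored 59.86. The nearest peaks to CYCD3;1, a G1 cyclin, and to CDKA;1 (CDC2 in the names table), the main cyclin-dependent kinase, were 2 genes away and scored 60.65 and 120.45. No other cyclin of the lists had a nearest peak within 3 genes that scored as high as the 285.51 near CYCB1;1. CYCB1;1 was chosen with its peak known, and that peak ranked 13 of 612, so few peaks could score as high.

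In the list entered for SIAMESE-related inhibitors, 1 of 14 genes had a peak, and that was LGO, chosen for it. Without LGO it was 0 of 13, against 2.06% of all genes. Only 5 of these 14 loci carry such a name in the names table. AT5G59360, from this list, was next to AT5G59350, the same peak that lies next to WOX2. SMR5 (AT1G07500), an inhibitor induced by DNA damage, was 2 genes from the peak of AT1G07520, which scored 64.55, against 51.94 at LGO.

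**Figure D4:**
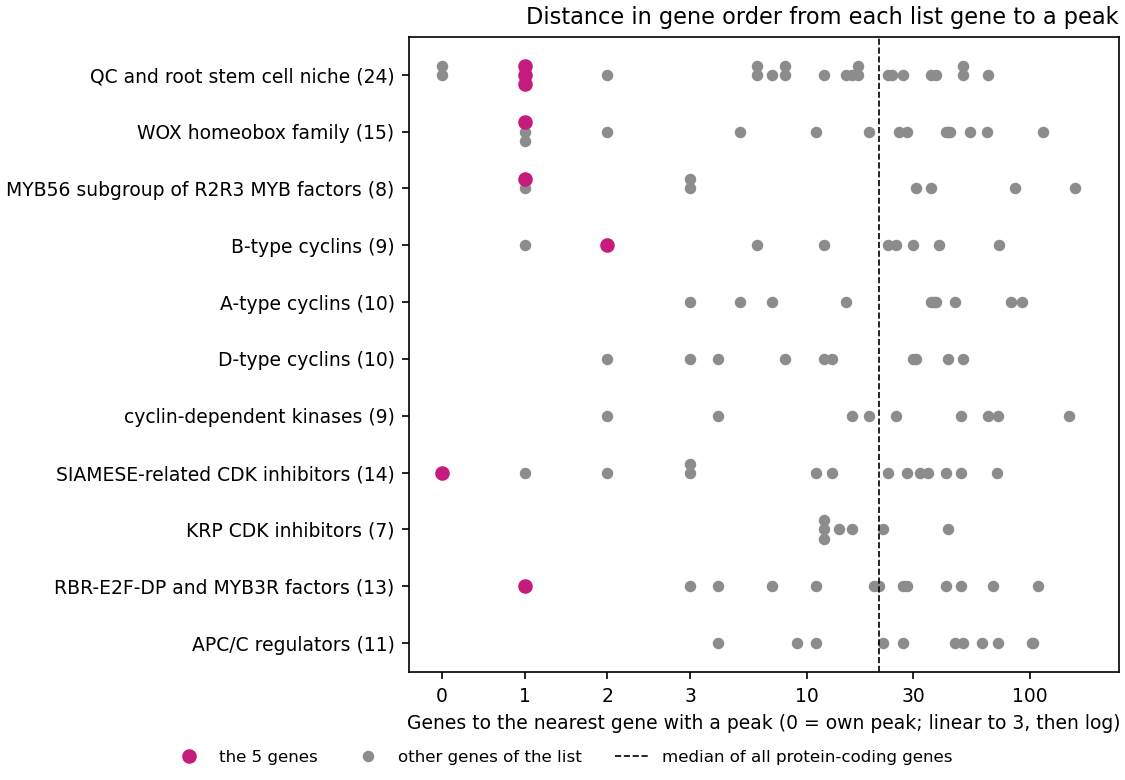
Number of protein-coding genes from each list gene to the nearest protein-coding gene with an assigned peak, with 0 for a gene with its own peak (axis linear to 3, then logarithmic, list sizes in brackets). The 5 chosen genes, in colour, lie at 0, 1 or 2, and the other genes, in grey, lie on both sides of the median of 21.0 over all protein-coding genes (dashed line).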

How the data were processed

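Chromatin from ERF115-HBH cells and mock-purified wild-type cells was sequenced, with 1 library of each. Per the submitters' processing notes, the build was TAIR10, peaks come from MACS (1.4.2), and BWA (0.5.9), SAMtools (0.1.18), CASAVA (1.8.2) and Picard are also listed, without parameters or filters. The authors deposited a peak list and an annotated copy, both with a score per peak; the Z score in the copy is that score standardised over the list. Scores and loci were joined by peak name, with no filter, in Python 3.11.15 with pandas 2.3.3. No source used here gives the rule behind loci and labels.

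Loci were named from a RefSeq table of TAIR10.1, which served for names and gene order only; 600 of 608 assigned loci matched. Gene order followed locus numbers of protein-coding genes, in which 564 of the 608 assigned loci have a place. The other assigned loci do not count as genes with a peak in that order. Of 127 list genes, 110 carried the intended name. The members and lists were chosen with earlier results of these data known, so no test was run. Genes named are the 5, their neighbours and list genes with a peak or next to one. Others were named after their values were seen. These are list genes 2 or 3 genes from a peak, peaks within 250 kb, niche genes without a peak, and AT5G10504. Sequences and motifs were not analysed here.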

Additional observations from a re-analysis of the deposited data

How the results depend on the processing

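The number of the 5 genes with a peak of their own or at the next gene was 4. It was 4 with the next locus of any type (5.53% of all genes), 3 among the 306 top-scoring peaks (3.07% of all genes), and 5 with up to 3 genes on either side (12.9% of all genes) or with up to 2, the last chosen after seeing the data. Among peaks scoring at least 100 it was 2, namely WOX5 and RBR1, against 1.95% of all genes. As the 5 genes were picked for these peaks, nothing is read from these counts beside the shares of all genes. Ranked by width in place of score, the peaks stood at 478 (WOX5), 607 (MYB56), 358 (RBR1), 320 (CYCB1;1) and 230 (LGO), against 103, 280, 55, 13 and 578. The 3 of 127 list genes with a peak became 11 with adjacent genes counted (5.93% of all genes), 0 among the 306 peaks (1.04% of all genes) and 0 among peaks scoring at least 100 (0.656% of all genes). No paired analysis was possible because the results come from no test and there was 1 library of either kind. For the same reason no replicate could be left out. Alternatives for motifs, fold enrichment and distance to a peak edge were not run, for lack of sequence, of fold values and of an annotation of the same build. As the depth is unknown, a gene without a peak is not shown to be unbound.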
